A study of Mus musculus with 20 samples.

Results

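Histone genes were taken as the genes of the deposited count table whose names begin with HIST1H to HIST4H, with H1F, H2AC, H2BC, H3C or H4C and a number, or with H2AF or H3F. The rule found 70 of 22416 genes, and no name began with H2AF. By name, 61 are replication-dependent (5 H1, 16 H2A, 16 H2B, 12 H3 and 12 H4 genes), 4 are variant genes (H1f0, H1f10, H3f3a and H3f3b), and 5 are germline genes (H1f6, H1f7, H1f8, H2ac1 and H2bc1). RefSeq places 50 of the replication-dependent genes on chromosome 13 and 10 on chromosome 3, and 1, Hist1h2ap, was not matched.

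Ribosome footprints came from mouse embryonic stem cells (mESCs) in 4 groups of genotype and medium. The groups were eIF2αA/A knock-in (KI) cells in LIF, eIF2α+/+ (WT) cells in LIF, KI cells in LIF/2i and WT cells in LIF/2i. The KI allele replaces the phosphorylated serine of the initiation factor eIF2α by alanine. LIF/2i is leukaemia inhibitory factor with the inhibitors PD0325901 (of MEK) and CHIR99021 (of GSK3), and LIF alone lacks both inhibitors. Every group had LIF at 1000 U/mL in a medium free of serum that held KnockOut Serum Replacement, was kept for 6 days, and met cycloheximide at washing and lysis. Each group was digested with MNase (3 libraries, 12 in all) or with RNase I (2 libraries, 8 in all), and footprints of 25 to 40 nt were taken from the monosome peak. The labels name neither the cell lines nor the number of clones, so line and genotype cannot be told apart, and give no word on whether replicates were grown apart. All p-values therefore measure the spread between these libraries, which may be technical. The design text asks how eIF2α phosphorylation bears on naive pluripotency.

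Nucleosomes hold a core of H2A, H2B, H3 and H4, and a linker histone H1 binds the DNA at their edge. Replication-dependent histone mRNAs accumulate in S phase, come from multicopy gene clusters without introns, and end in a conserved stem-loop in place of a poly(A) tail. Variant histones come from single-copy genes with polyadenylated mRNAs that are expressed outside S phase as well, and germline histones replace the standard ones in sperm or egg development. Pluripotent stem cells have a short G1 phase and spend much of their cycle in S phase.

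Total counts were 6560173 to 8894080 in the KI MNase libraries and 2127850 to 5461210 in the WT MNase libraries, so MNase depth and genotype cannot be told apart. RNase I totals were 1965050 to 16359039 in KI and 4011036 to 22916734 in WT. All 8 mESC markers fixed for the check were detected, with summed levels of 3576 to 5650 CPM (counts scaled to library size by TMM-adjusted totals) in KI and 3816 to 5877 CPM in WT with MNase. In LIF against LIF/2i, 5 of the 8 were lower in KI and 4 in WT with MNase (edgeR, adjusted p under 0.05). Markers of other cell types moved with the groups too. Of 6 tested primitive endoderm markers, 2 were lower in KI than in WT in LIF/2i and 4 in LIF, with sums in LIF of 57.1 to 61.1 CPM in KI and 151 to 203 CPM in WT, and sums in LIF/2i of 36.3 to 55.8 CPM in KI and 59.3 to 64.5 CPM in WT. Of these 6, 1 was higher in LIF than in LIF/2i in KI and 3 in WT. Of 6 fibroblast markers 3, all collagen genes, were higher in LIF in each genotype, and of 4 trophoblast markers 3 were higher in LIF in WT and 0 in KI. Between KI and WT in LIF, 1 fibroblast and 1 trophoblast marker were lower in KI, and 0 of either in LIF/2i. Fibroblast sums were 299 to 793 CPM in KI and 284 to 1093 CPM in WT in LIF, and 137 to 567 CPM in KI and 178 to 632 CPM in WT in LIF/2i, where 2 of the 8 listed were at 0 in each genotype. Trophoblast sums were 252 to 284 CPM in KI and 416 to 584 CPM in WT in LIF, and 96.4 to 232 CPM in KI and 184 to 252 CPM in WT in LIF/2i. The part of such cells in the histone results was not tested. Eif2s1, which encodes eIF2α, had 130 to 178 CPM in KI and 89.0 to 117 CPM in WT with MNase, but its level does not test a point mutation. KI replicate 1 in both media stood apart from the other MNase libraries on the third principal component, which held 9.94% of the variance, and counts without it are given beside the results. Footprints combine RNA level and translation, since RNA-seq was not used here, and in bulk cells fewer cells of a type and less RNA per cell cannot be told apart. How reads that fit several genes were counted is not stated here, so the level of any single copy that may share reads with another is uncertain.

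Promoter sequences are shown for 8 histone genes, among them picked pairs of copies that carry some of the largest differences below. Shared upstream runs were measured only within picked pairs, not across all histone promoters. They come from RefSeq (GRCm38.p6), whose promoter table held 64 of the 70 histone genes. Each run is 120 bases, written 5′ to 3′ on the strand of its gene. Capitals mark 3 motifs searched on both strands of the 250 bases before each start, TATAAA (the TATA box), CCAAT (the CCAAT box) and ATTTGCAT (the octamer, known from H2B promoters). No histone promoter held overlapping motifs of different kinds. The H4 genes Hist1h4m and Hist1h4n lie in opposite orientation on chromosome 13 and share an unbroken run of 249 of their 250 upstream bases.
Hist1h4m (chr13:21811626-21811745, plus strand): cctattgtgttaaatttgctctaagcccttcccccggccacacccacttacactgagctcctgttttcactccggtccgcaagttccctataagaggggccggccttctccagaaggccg
Hist1h4n (chr13:21832198-21832317, minus strand): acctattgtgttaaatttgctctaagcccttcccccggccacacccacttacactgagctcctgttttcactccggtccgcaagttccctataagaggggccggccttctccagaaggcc
Their H2B neighbours Hist1h2bq and Hist1h2br share all 250 upstream bases, and both printed runs hold a pair of CCAAT boxes.
Hist1h2bq (chr13:21810200-21810319, minus strand): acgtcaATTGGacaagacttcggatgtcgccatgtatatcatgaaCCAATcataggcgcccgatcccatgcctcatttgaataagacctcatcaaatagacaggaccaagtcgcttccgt
Hist1h2br (chr13:21833623-21833742, plus strand): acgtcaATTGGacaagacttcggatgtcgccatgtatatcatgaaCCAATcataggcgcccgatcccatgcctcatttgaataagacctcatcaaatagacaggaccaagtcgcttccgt
The genes of the H4, linker H1 and H2B families most abundant with MNase differ from these copies and from each other.
H4c4 (chr13:23581448-23581567, plus strand): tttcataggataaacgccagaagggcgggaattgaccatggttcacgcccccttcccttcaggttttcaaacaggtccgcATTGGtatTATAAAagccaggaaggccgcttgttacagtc
H1f1 (chr13:23763548-23763667, plus strand): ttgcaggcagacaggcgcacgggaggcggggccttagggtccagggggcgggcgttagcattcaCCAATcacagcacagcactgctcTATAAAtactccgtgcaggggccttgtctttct
H2bc18 (chr3:96269580-96269699, plus strand): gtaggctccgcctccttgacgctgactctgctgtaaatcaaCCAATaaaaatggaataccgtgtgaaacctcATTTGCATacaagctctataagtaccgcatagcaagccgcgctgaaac
The variant gene H3f3b, which makes the replacement histone H3.3, is shown as the only variant promoter with an octamer.
H3f3b (chr11:116024505-116024624, minus strand): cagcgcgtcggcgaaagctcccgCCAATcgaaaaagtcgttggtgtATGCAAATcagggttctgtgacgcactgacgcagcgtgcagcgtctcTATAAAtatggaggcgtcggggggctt
Over the 55 replication-dependent promoters, 47.3% held the TATA box, 81.8% the CCAAT box and 20% the octamer, against 12.9%, 34.2% and 1.59% of 27025 promoters of all genes. The CCAAT box was present in all 15 H2A and all 14 H2B promoters but in 3 of 11 H4 promoters, and the octamer in 6 of 14 H2B and 5 of 15 H2A promoters. A match describes letters anywhere in the 250 bases on either strand, and nothing about position or factor binding. Hist1h4m and Hist1h4n, for example, count as holding TATAAA by a match that their printed bases do not show. The pair H2ac18 and H2ac19 shared a longest run of 169 bases, and H3c14 and H3c15 one of 231 bases.

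A few genes carried most histone footprints. Over the MNase libraries the linker gene H1f1 held 13% of the histone level (mean CPM), the 5 most abundant genes 43.8%, and the 10 most abundant 65.0%. With RNase I the same ranks held 13.7%, 45.9% and 62.8%. The most abundant gene of each replication-dependent family in MNase libraries was H1f1 for H1, H2ac4 for H2A, H2bc18 for H2B, H3c3 for H3 and H4c4 for H4. The germline linker H1f7, known from spermatids, had 0 counts in 12 MNase libraries, which allows up to 0.0453 CPM over them, and 10 counts in 4 of 8 RNase I libraries. The oocyte linker H1f8 had 1 count with each nuclease. The other 68 genes passed the filter on low counts and were tested in every fit.

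In the MNase libraries, KI cells had fewer replication-dependent histone footprints than WT cells. Their summed level in LIF was 11474, 10151 and 9562 CPM in KI and 13308, 12732 and 13273 CPM in WT. In LIF/2i it was 12539, 9387 and 9498 CPM in KI and 14523, 14149 and 14833 CPM in WT. No KI library reached the lowest WT library in either medium. The mean in LIF was 10396 ± 979 CPM in KI and 13105 ± 323 CPM in WT (SD, n = 3 each), a ratio of 0.793. In LIF/2i it was 10475 ± 1788 CPM in KI and 14502 ± 343 CPM in WT (SD, n = 3 each), a ratio of 0.722. Sums do not depend on how reads were split between copies within the class. No test was made on sums, because the genes were chosen with earlier results known.

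With RNase I the same sums were not lower in KI. In LIF they were 11314 and 14408 CPM in KI and 12513 and 11560 CPM in WT, and in LIF/2i 11851 and 12999 CPM in KI and 10952 and 12158 CPM in WT. The KI and WT ranges overlapped in both media, and the ratios of means were 1.07 in LIF and 1.08 in LIF/2i. Each RNase I group has 2 libraries.

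The 4 variant genes summed differently from the replication-dependent class in LIF/2i. Their summed MNase level there was 242 ± 66.3 CPM in KI and 238 ± 11.2 CPM in WT (SD, n = 3 each), a ratio of 1.01. In LIF it was 267 ± 63.9 CPM in KI and 365 ± 29.1 CPM in WT (SD, n = 3 each), a ratio of 0.730. The KI mean in LIF/2i was raised by KI replicate 1, the library that stood apart. For H1f10, H1f0 and H3f3b, KI replicates 2 and 3 in LIF/2i lay below every WT library, and for H3f3a they did not. H1f10 had 75.4 and 73.5 CPM in them, against 79.7 to 83.6 CPM in WT. In WT cells the variant sum in LIF was 1.53 times that in LIF/2i with MNase and 1.52 times with RNase I. The replication-dependent sum in WT was 0.904 times as high in LIF as in LIF/2i with MNase and 1.04 times with RNase I. The difference between the classes was not tested.

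**Figure D1:**
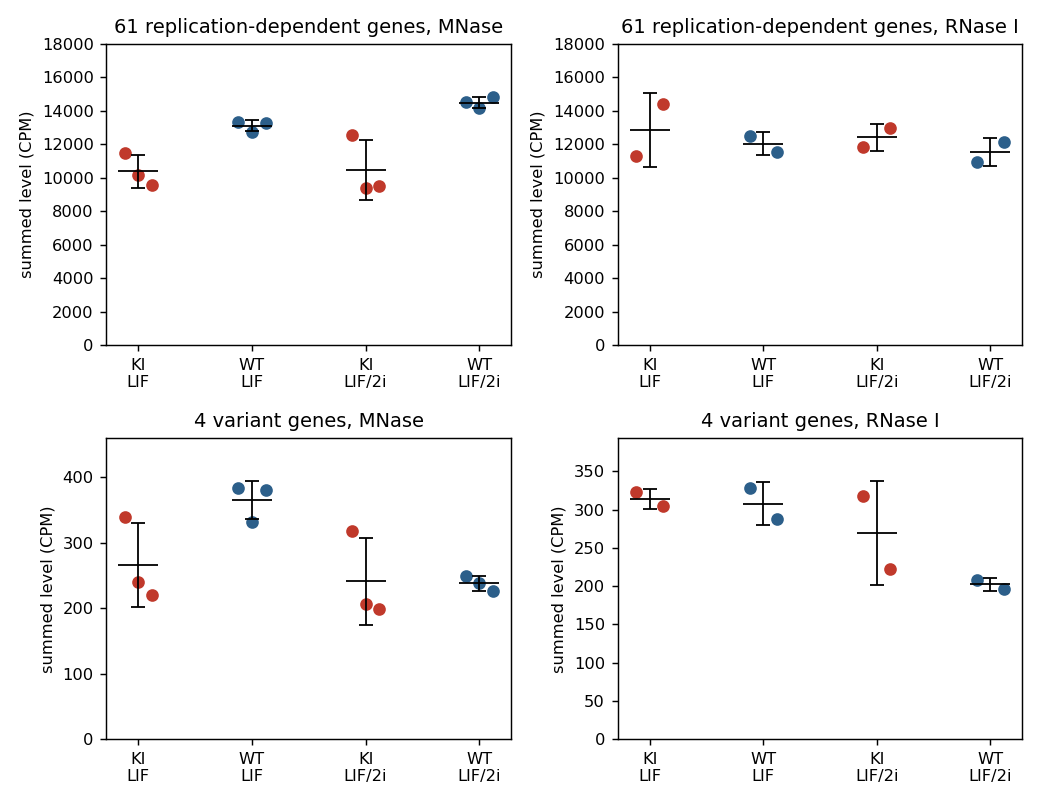
Summed footprint level (CPM, linear axis from 0) of replication-dependent and of variant histone genes in each library, with the group mean, by genotype and medium for MNase and RNase I. All MNase KI libraries lie below all MNase WT libraries of the same medium for the replication-dependent sum, while the RNase I ranges overlap.

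By family, the KI over WT ratio of summed MNase levels in LIF/2i was 0.752 for H1, 0.788 for H2A, 0.674 for H2B, 0.697 for H3 and 0.684 for H4. In LIF it was 0.818 for H1, 0.716 for H2B, 0.658 for H3 and 0.774 for H4. The H2A family alone had a ratio above 1 in LIF, with 1030 ± 22.3 CPM in KI and 885 ± 157 CPM in WT (SD, n = 3 each), a ratio of 1.16. The WT spread was larger than that difference. With RNase I, family ratios ranged from 0.988 for H4 to 1.22 for H2A in LIF/2i and from 0.988 for H1 to 1.27 for H3 in LIF.

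Gene by gene, 35 of the 68 tested histone genes were lower and 0 higher in KI than in WT in LIF/2i with MNase (edgeR, adjusted p under 0.05). Over all 12806 genes tested, 11.5% were lower, 13.8% higher and 25.4% changed either way, and at an unadjusted p under 0.05, 45 histone genes were lower and 1 higher, against 38.9% of all genes. The log2 fold change was negative for 62 of the 68, with a median of −0.56 against 0.01 over all genes. The lower genes were 34 of 61 replication-dependent genes and the germline gene H1f6. By family, 12 of 16 H2B, 10 of 12 H4, 6 of 12 H3, 5 of 16 H2A and 1 of 5 H1 genes were lower. They were 27 of 50 genes on chromosome 13 and 7 of 10 on chromosome 3. None of the 4 variant genes passed, with log2 fold changes of −0.28 to 0.20. The ranges of KI and WT libraries were apart, with KI lower, for 38 histone genes, against 18.5% of all genes, and with KI higher for 1, against 21.2%.

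The 6 genes with the smallest p were low-level members in H2A, H2B and H4. H2ac18, an H2A gene, had 5.96, 2.82 and 4.52 CPM in KI and 35.8, 44.9 and 32.9 CPM in WT. Its log2 fold change was −3.10 (SE 0.31, edgeR adjusted p = 0.000204), and the highest KI library lay far below the lowest WT library. Its neighbour H2ac19 had 5.04, 1.92 and 1.83 CPM in KI and 16, 27.0 and 15.0 CPM in WT, a change of −2.73 (SE 0.42, edgeR adjusted p = 0.00107). Both encode standard H2A and could share reads.

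Among H4 genes, Hist1h4m had 13.1, 5.25 and 5.65 CPM in KI and 54.6, 47.8 and 53.4 CPM in WT, a log2 change of −2.70 (SE 0.31, edgeR adjusted p = 0.000411). Hist1h4n, whose promoter is printed beside it above, had 13.4, 3.58 and 5.65 CPM in KI and 61.7, 44.6 and 56.1 CPM in WT, a change of −2.85 (SE 0.37, edgeR adjusted p = 0.000598). KI replicate 1 was the highest KI library for both and still below every WT library. H4c12, another H4 gene, had 18, 15.1 and 13.5 CPM in KI and 53.9, 45.2 and 38.8 CPM in WT, a change of −1.56 (SE 0.19, edgeR adjusted p = 0.000502). The H2B gene H2bc6 had 18, 7.68 and 12.4 CPM in KI and 46.8, 38.4 and 59.5 CPM in WT, a change of −1.93 (SE 0.28, edgeR adjusted p = 0.000767).

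The abundant genes differed less. H4c4 had 464, 352 and 382 CPM in KI and 616, 517 and 590 CPM in WT, a log2 change of −0.52 (SE 0.15, edgeR adjusted p = 0.0214). H2bc18 had 921, 717 and 665 CPM in KI and 951, 1498 and 987 CPM in WT, a change of −0.58 (SE 0.18, edgeR adjusted p = 0.0361). Ranges were apart for both, narrowly so for H2bc18. H1f1 had 1836, 1407 and 1384 CPM in KI and 1950, 1989 and 1954 CPM in WT, a change of −0.35 (SE 0.15) that missed the threshold (edgeR adjusted p = 0.0993). H3c3 had 275, 241 and 255 CPM in KI and 332, 276 and 377 CPM in WT, and also missed it (edgeR adjusted p = 0.054). H2ac4 had 178, 141 and 164 CPM in KI and 205, 140 and 236 CPM in WT, with overlapping ranges (edgeR adjusted p = 0.269).

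Split by mean MNase level at limits chosen after values were seen, the 29 replication-dependent genes at 100 CPM or more had a median log2 change of −0.49, with 14 lower. The 14 genes between 30 and 100 CPM had a median of −0.49, with 5 lower. The 18 genes under 30 CPM had a median of −1.90, with 15 lower. In these low genes a few shared or lost reads weigh more, and the part of read sharing in the difference was not tested.

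**Figure D2:**
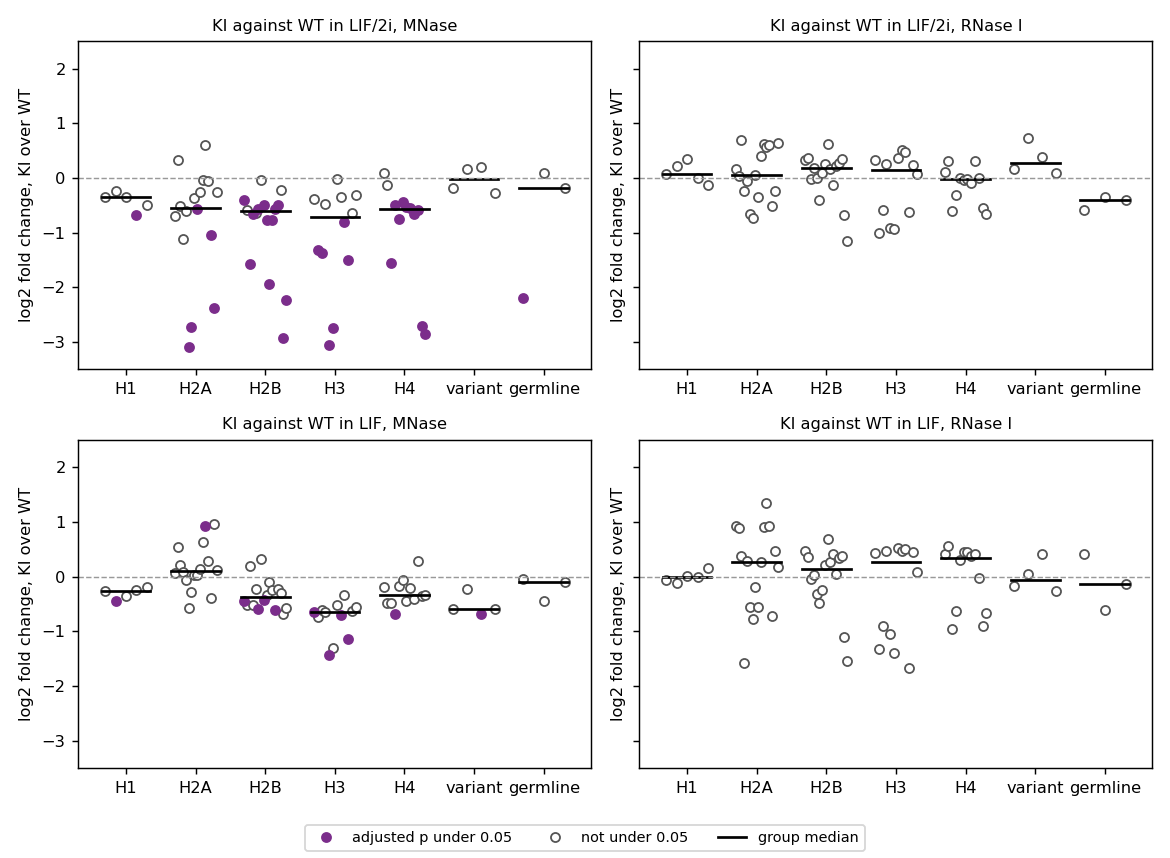
Log2 fold change of KI over WT for each tested histone gene, by family of replication-dependent genes and for variant and germline genes, in both media and nucleases. Filled points pass the adjusted p threshold and lines are medians. The MNase medians of the replication-dependent families in LIF/2i lie between −0.36 and −0.72, and no RNase I point is filled.

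The variant genes had overlapping ranges in LIF/2i. H1f10, a linker of single-copy origin, had 124, 75.4 and 73.5 CPM in KI and 80.8, 83.6 and 79.7 CPM in WT (edgeR adjusted p = 0.655). H1f0 had 77.0, 37.8 and 40.6 CPM in KI and 55.0, 58.1 and 63.2 CPM in WT (edgeR adjusted p = 0.563). The H3.3 gene H3f3a had 66.7, 66.7 and 56.7 CPM in KI and 74.1, 53.4 and 39.1 CPM in WT (edgeR adjusted p = 0.503). H3f3b had 49.9, 27.0 and 28.9 CPM in KI and 39.7, 43.1 and 45.2 CPM in WT (edgeR adjusted p = 0.501). KI replicate 1 was the highest KI library for H1f10, H1f0 and H3f3b.

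Among germline genes, the testis linker H1f6 had 26.7, 12 and 13.1 CPM in KI and 34.0, 58.7 and 143 CPM in WT in LIF/2i. It was lower in KI by log2 −2.20 (SE 0.44, edgeR adjusted p = 0.00397), and the WT libraries spread widely. The 4 germline markers moved both ways (edgeR, adjusted p under 0.05). Dazl was lower in KI (log2 −1.10), Sycp3 (1.85) and Ddx4 (0.87) were higher, and Tdrd1 (1.22) missed the threshold. Their summed levels were 422 to 452 CPM in KI and 740 to 841 CPM in WT, with none at 0, and their part in the H1f6 result was not tested.

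Without KI replicate 1 in either medium, 49 histone genes were lower in KI in LIF/2i, against 39.1% of all genes changed. Dropping KI LIF/2i replicate 2 or 3 gave 20 or 22 calls. Here and below, counts from DESeq2 or from dropping 1 library are given without the share of all genes called, with which they may move. H2ac18, H2ac19, H3c14, H4c12, Hist1h2ao, Hist1h4m and Hist1h4n passed in all 21 alternative settings run.

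In LIF fewer histone genes differed between KI and WT cells with MNase. There 11 were lower and 1 higher in KI (edgeR, adjusted p under 0.05), against 6.05% lower, 7.36% higher and 13.4% in all of the genes tested, and the median was −0.34 against −0.01. The lower genes were 4 of 12 H3, 4 of 16 H2B, 1 H4, 1 H1 and 1 variant gene. All 12 replication-dependent H3 genes had negative log2 changes, with a median of −0.65. Of 16 H2A genes 12 had positive values, with a median of 0.10. Ranges were apart with KI lower for 24 histone genes, against 17.5% of all genes, and with KI higher for 3, against 18%.

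H3c3, the most abundant H3 gene, had the smallest p, with 264, 232 and 225 CPM in KI and 399, 379 and 386 CPM in WT. Its log2 change was −0.69 (SE 0.13, edgeR adjusted p = 0.00465), and the ranges were far apart. The H3 gene H3c1 had 163, 132 and 129 CPM in KI and 205, 205 and 253 CPM in WT, at log2 −0.65 (SE 0.16, edgeR adjusted p = 0.0184). H3c6, a low-level H3 gene, had 15.1, 12.3 and 14.7 CPM in KI and 26.0, 21.2 and 44.7 CPM in WT, a change of −1.14 (SE 0.30, edgeR adjusted p = 0.0259). In each of these H3 genes the highest KI library was below the lowest WT library.

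The H2B gene H2bc8 had 105, 115 and 119 CPM in KI and 166, 164 and 186 CPM in WT in LIF, a change of −0.61 (SE 0.15, edgeR adjusted p = 0.0167). H4c14, an H4 gene of the chromosome 3 cluster, had 361, 337 and 295 CPM in KI and 505, 578 and 518 CPM in WT, a change of −0.69 (SE 0.17, edgeR adjusted p = 0.0204). The 1 higher gene was H2ac7, an H2A gene. It had 68.0, 72.1 and 60.5 CPM in KI and 26.5, 28.5 and 48.9 CPM in WT, a change of 0.92 (SE 0.22, edgeR adjusted p = 0.0158). Its ranges were also apart with RNase I, at 50.4 and 88.5 CPM in KI and 30.4 and 24.1 CPM in WT, where it missed the threshold (log2 change 1.34, SE 0.31, edgeR adjusted p = 0.176).

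H3f3a, a gene for the replacement histone H3.3, had 45.4, 37.3 and 31.4 CPM in KI and 61.6, 61.3 and 60.3 CPM in WT in LIF. It was lower in KI by log2 −0.68 (SE 0.21, edgeR adjusted p = 0.0454). With RNase I it had 65.1 and 67.7 CPM in KI and 47.5 and 52.1 CPM in WT, ranges apart in the other direction (log2 change 0.41, SE 0.18, edgeR adjusted p = 0.382). H3f3b, the other H3.3 gene, had 69.5, 43.3 and 31.1 CPM in KI and 61.1, 68.1 and 85.3 CPM in WT with MNase, and its ranges overlapped (edgeR adjusted p = 0.188). The linkers H1f0, associated with differentiated cells, and H1f10 had log2 changes of −0.58 and −0.22 and missed the threshold (edgeR adjusted p = 0.0945 and 0.594).

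Of the other most abundant genes in LIF, H2bc18 had 794, 736 and 650 CPM in KI and 1002, 1294 and 1002 CPM in WT, a change of −0.60 (SE 0.18, edgeR adjusted p = 0.048). H4c4 had 466, 421 and 377 CPM in KI and 618, 636 and 465 CPM in WT (edgeR adjusted p = 0.0645). H1f1 had 1630, 1267 and 1219 CPM in KI and 1801, 1380 and 1736 CPM in WT (edgeR adjusted p = 0.275). H2ac4 had 192, 200 and 201 CPM in KI and 175, 159 and 205 CPM in WT (edgeR adjusted p = 0.637). Ranges were apart for H2bc18 and overlapped for the other genes.

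The LIF count of histone genes called moved when single libraries were dropped. The share over all genes may have moved as well and is not given for fits that drop 1 library. The histone count was 28 without KI replicate 1 in either medium, against 26.7% of all genes. Dropping KI LIF replicate 2 gave 5 calls, dropping KI LIF replicate 3 gave 3, and dropping KI LIF/2i replicate 2 or 3 gave 7 each. Dropping WT LIF replicate 1, 2 or 3 gave 2, 7 or 6 calls.

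With RNase I, 0 histone genes passed for KI against WT in either medium (edgeR, adjusted p under 0.05), against 0.232% of 12095 genes in LIF/2i and 0.116% in LIF. At an unadjusted p under 0.05, 5 passed in LIF/2i (2 higher, 3 lower), against 12.8% of all genes, and 16 in LIF (9 higher, 7 lower), against 13.3%. DESeq2 called 0 in LIF/2i and 1 in LIF. Medians were 0.07 in LIF/2i and 0.12 in LIF. H4c4 in LIF/2i had 222 and 208 CPM in KI and 232 and 202 CPM in WT, with overlapping ranges, and H1f1 had 1880 and 1961 CPM in KI and 1718 and 1932 CPM in WT. H2bc18 had 641 and 583 CPM in KI and 563 and 1065 CPM in WT, and its WT replicates differed more than the genotypes. H3c3 had 205 and 361 CPM in KI and 179 and 219 CPM in WT, and H2ac4 had 158 and 211 CPM in KI and 149 and 131 CPM in WT.

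In LIF, H3c3 had 303 and 453 CPM in KI and 275 and 269 CPM in WT with RNase I, and H4c4 had 319 and 364 CPM in KI and 251 and 248 CPM in WT, so both had ranges apart with KI higher. Neither passed (edgeR adjusted p = 0.492 and 0.265). Ranges were apart in LIF for 27 histone genes with KI higher and 19 with KI lower, against 22.2% and 24.3% of all genes, and in LIF/2i for 14 and 11, against 22% and 21.5%.

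Low and abundant genes, grouped by the same MNase means, differed in sign with RNase I. In LIF/2i, 22 of the 29 replication-dependent genes at 100 CPM or more had positive log2 changes, with a median of 0.22, and 17 of the 18 genes under 30 CPM had negative ones, with a median of −0.61. In LIF the medians were 0.31 and −0.90, with 16 of the 18 low genes negative. H2ac18 in LIF/2i had 15.2 and 13.9 CPM in KI and 18.5 and 27.7 CPM in WT, a log2 change of −0.65 (SE 0.55, edgeR adjusted p = 0.652). These values were not past the threshold for any gene. Without KI replicate 1, 8 histone genes passed in LIF/2i (4 higher, 4 lower), against 4.5% of all genes, and 4 in LIF, all higher, against 1.27%. Each KI group then has 1 library, which is assumed to vary like the WT libraries that supply the spread.

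A direct test of whether the KI and WT difference varied with nuclease used replicates 1 and 2 of both digests. Without a replicate block 0 histone genes passed (edgeR, adjusted p under 0.05; 0% of 12732 genes) in LIF/2i and 0 in LIF (0%), although 19 and 14 had an unadjusted p under 0.05, against 8.78% and 2.92% of all genes. DESeq2 called 0 in LIF/2i and 1 in LIF. Libraries of the same group and number deviated together across nucleases, with correlations of 0.486 to 0.711 across genes, so the fit with the replicate block applies as well. With it, 24 histone genes differed in LIF/2i, 23 with a lower KI over WT ratio with MNase than with RNase I and 1, H2ac11, with a higher one. Over all genes 6.32% were lower and 8.99% higher. The median over histone genes was −0.53, against −0.02 over all genes, and 64 of 68 were negative.

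The smallest p in that test belonged to H2ac18, with a difference of −2.56 (SE 0.37, edgeR adjusted p = 0.000457). The 23 genes were 7 H2B, 7 H4, 4 H3, 3 H2A and 2 H1 genes, and no variant gene passed. In LIF the blocked test called 3 genes, against 0.738% of all genes, namely H4c4 (−0.96), H2bc11 (−1.02) and H3f3a (−1.0), all log2 differences with a lower ratio with MNase. Without KI replicate 1, which leaves 1 KI library a group, 2 genes differed in LIF/2i in the fit without the block, against 0.0384% of all genes, and the lone libraries are again assumed to vary like the others. Restricting the MNase fit to replicates 1 and 2 left 7 histone genes called for KI against WT in LIF/2i, against 2.05% of all genes, and 0 in LIF, against 0.0715%.

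The picked pairs of genes with long shared upstream runs were also summed, so that their total does not depend on how reads were split within the pair. Other pairs were not searched for shared runs. Identity of their coding sequences, which the footprints cover, was not measured here. H2ac18 and H2ac19 together had 7.36 ± 3.25 CPM in KI and 57.2 ± 12.9 CPM in WT in LIF/2i with MNase (SD, n = 3 each), a ratio of 0.129. H3c14 and H3c15, both H3 genes of chromosome 3, had 5.69 ± 4.40 CPM in KI and 44.0 ± 6.79 CPM in WT, also a ratio of 0.129. Hist1h4m and Hist1h4n had 15.6 ± 9.61 CPM in KI and 106 ± 12.3 CPM in WT, a ratio of 0.147. Hist1h2bq and Hist1h2br had 2.49 ± 2.21 CPM in KI and 14.4 ± 5.16 CPM in WT, a ratio of 0.173.

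In all 4 pairs the KI and WT ranges of these sums were apart. In LIF with MNase the KI over WT ratios were 0.741, 0.390, 0.799 and 0.682 in the same order of pairs, and with RNase I in LIF/2i 0.616, 0.512, 0.643 and 0.496. Hist1h4m held 49.4% to 59.4% of its pair's counts in the KI LIF/2i MNase libraries and 47.0% to 51.7% in WT. Sums over a pair still exclude reads that further copies may share.

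**Figure D3:**
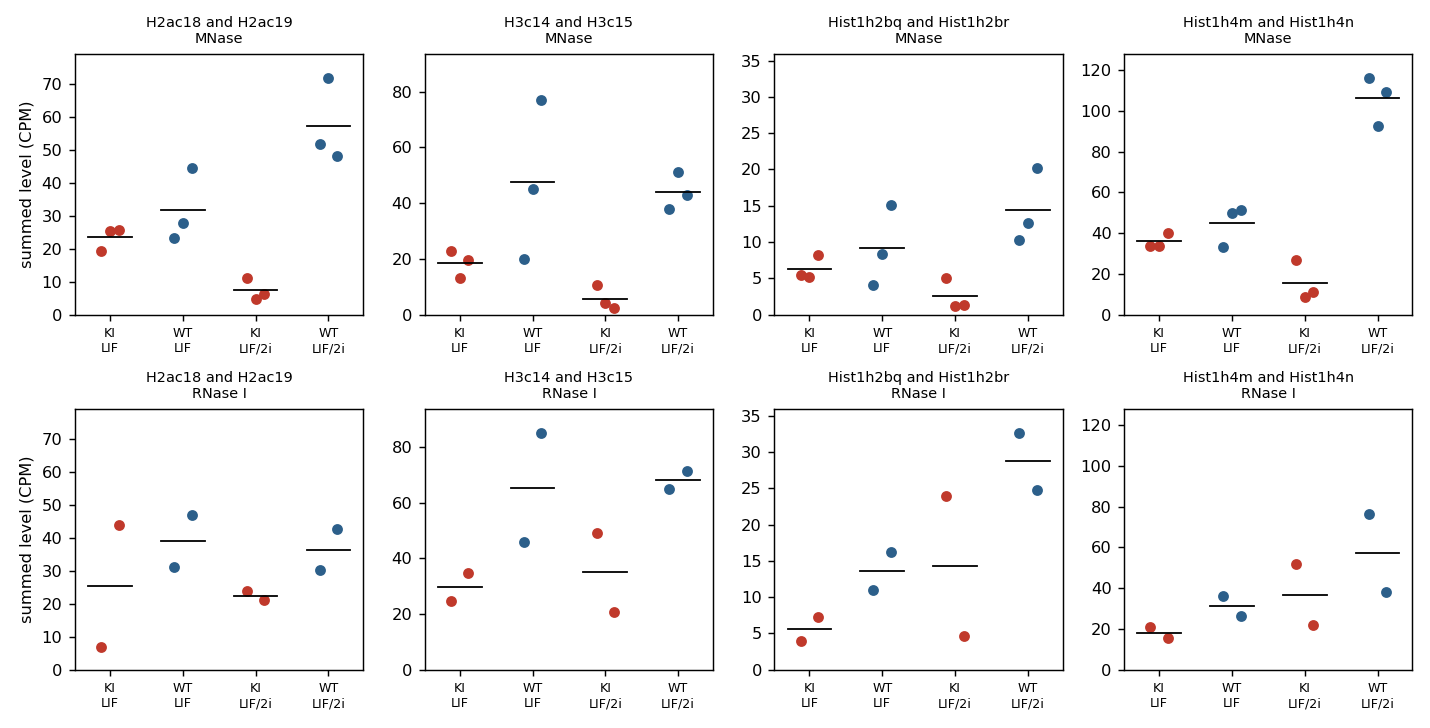
Summed level (CPM) of 4 pairs of histone genes with shared upstream runs in each library, by genotype and medium for both nucleases. In LIF/2i with MNase the KI libraries of each pair lie below all WT libraries.

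In KI cells with MNase, 11 of 68 histone genes were higher and 1 lower in LIF than in LIF/2i (edgeR, adjusted p under 0.05), against 8.37% higher, 10.3% lower and 18.7% in all of the genes tested. Calls either way made up 17.6% of the histone genes, near the share over all genes. At an unadjusted p under 0.05 the shares were 29.4% of histone genes and 32.4% of all genes. The median log2 change was 0.29, against 0.00 over all genes. The higher genes were 4 H2A, 4 H2B, 2 H4 and 1 H3 gene, and all 16 H2A genes had positive values. The 5 H1 genes had no call. Of the 18 replication-dependent genes under 30 CPM, 7 were called higher and all had positive log2 changes, with a median of 1.01. Of the 29 genes at 100 CPM or more 1 was called higher, and their median was 0.03. The KI LIF/2i libraries enter the mean that sets these groups, so low values there can place a gene under 30 CPM. The summed class was 0.992 times as high in LIF as in LIF/2i. Ranges were apart with LIF higher for 21 genes, against 17.1% of all genes, and with LIF lower for 5, against 17.8%.

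H2ac18 had 11.2, 15.3 and 14.1 CPM in KI cells in LIF, against the LIF/2i values given above, a log2 change of 1.62 (SE 0.30, edgeR adjusted p = 0.0025). H2bc6 had 28.6, 33.0 and 34.7 CPM in LIF, a change of 1.34 (SE 0.27, edgeR adjusted p = 0.00429). H2ac19 had 8.15, 10.1 and 11.6 CPM in LIF, a change of 1.78 (SE 0.41, edgeR adjusted p = 0.00918). For each of the 3 genes every LIF library was above every LIF/2i library. The H2A gene Hist1h2ao had 10.0, 17.4 and 20.2 CPM in LIF and 4.12, 1.66 and 5.36 CPM in LIF/2i, a change of 2.10 (SE 0.47, edgeR adjusted p = 0.00765). Hist1h4m had 15.1, 18.1 and 19.7 CPM in LIF, a change of 1.15 (SE 0.30, edgeR adjusted p = 0.0172). H3c14 had 14.6, 9.70 and 14.4 CPM in LIF and 7.02, 2.69 and 1.69 CPM in LIF/2i, a change of 1.78 (SE 0.48, edgeR adjusted p = 0.0204).

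The 1 lower gene in LIF was H3f3a, with 45.4, 37.3 and 31.4 CPM in LIF and 66.7, 66.7 and 56.7 CPM in LIF/2i, a log2 change of −0.74 (SE 0.20, edgeR adjusted p = 0.0229). KI libraries of the same number in LIF and LIF/2i deviated together, with correlations of 0.315 to 0.563 across genes. Replicates 2 and 3 also correlated with each other across media (0.367 and 0.404), and replicate 1 correlated negatively with both (−0.508 to −0.431). The values set replicate 1 apart and do not show pairing by number for replicates 2 and 3. A fit of the KI libraries alone with the replicate block called 22 histone genes, 20 higher and 2 lower in LIF, against 29.3% of all genes. The count was 24 without KI replicate 1, against 25% of all genes. Dropping KI LIF replicate 2 or 3 gave 7 or 4 calls, and dropping KI LIF/2i replicate 1, 2 or 3 gave 23, 4 or 5. With RNase I only H4c4 passed in KI cells, where 3.46% of all genes did (1.41% higher, 2.04% lower). It had 319 and 364 CPM in LIF and 222 and 208 CPM in LIF/2i, a change of 0.66 (SE 0.14, edgeR adjusted p = 0.0457). Most low-level genes had the opposite sign from MNase. Of the 18 genes under 30 CPM, 14 had negative log2 changes with RNase I, with a median of −1.05 and 0 calls, among them Hist1h4m (−1.16, edgeR adjusted p = 0.28) and H3c6 (−1.78, edgeR adjusted p = 0.154). The 29 genes at 100 CPM or more had a median of 0.17. The LIF over LIF/2i ratio of the summed pair Hist1h4m and Hist1h4n in KI cells was 2.31 with MNase and 0.494 with RNase I, and that of H2ac18 and H2ac19 was 3.19 with MNase and 1.13 with RNase I.

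In WT cells with MNase, 7 histone genes were lower and 1 higher in LIF than in LIF/2i (edgeR, adjusted p under 0.05), against 11% lower, 9.99% higher and 21% in all of the genes tested, so the count of 8 was below the background share. H4c12 had 24.2, 28.5 and 23.0 CPM in LIF, against the WT LIF/2i values above, a log2 change of −0.86 (SE 0.19, edgeR adjusted p = 0.00635). Hist1h4m had 16.9, 23.6 and 26.0 CPM in LIF, a change of −1.21 (SE 0.29, edgeR adjusted p = 0.011), and Hist1h4n had 16.4, 26.3 and 25.5 CPM, a change of −1.23 (SE 0.35, edgeR adjusted p = 0.0252). For these H4 genes every LIF library was below every LIF/2i library. H4c9 had 42.0, 54.8 and 57.7 CPM in LIF and 99.6, 69.0 and 89.0 CPM in LIF/2i, a change of −0.73 (SE 0.18, edgeR adjusted p = 0.0118). H2ac18 (−0.90) and H1f6 (−1.43) were also lower.

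The linker H1f5 had 860, 811 and 840 CPM in LIF and 1395, 1391 and 1359 CPM in LIF/2i in WT cells, a log2 change of −0.72 (SE 0.20, edgeR adjusted p = 0.023). It was the only histone gene called in WT cells with RNase I, where 13.6% of all genes were (7.17% higher, 6.47% lower), with 724 and 673 CPM in LIF and 1038 and 1080 CPM in LIF/2i, a change of −0.60 (SE 0.15, edgeR adjusted p = 0.0283). The 1 higher gene with MNase was the variant linker H1f0, with 101, 105 and 95.8 CPM in LIF and 55.0, 58.1 and 63.2 CPM in LIF/2i, a change of 0.78 (SE 0.22, edgeR adjusted p = 0.0256). H1f10 had 159, 97.1 and 140 CPM in LIF and 80.8, 83.6 and 79.7 CPM in LIF/2i and missed the threshold (edgeR adjusted p = 0.0634). All 4 variant genes had positive log2 changes, with a median of 0.72.

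The WT count with MNase was 18 without KI replicate 1 (32.3% of all genes), 13 without KI LIF/2i replicate 1, 2 and 4 when WT LIF replicate 1 or 2 was dropped, and 3 and 5 when WT LIF/2i replicate 1 or 2 was. With RNase I it was 9 without KI replicate 1 (24% of all genes), 5 on dropping KI LIF/2i replicate 1 or 2, and 0 without any 1 of the 4 WT libraries. In KI cells with RNase I, dropping KI LIF/2i replicate 2 gave 3 calls and dropping any other single library gave 0.

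**Figure D4:**
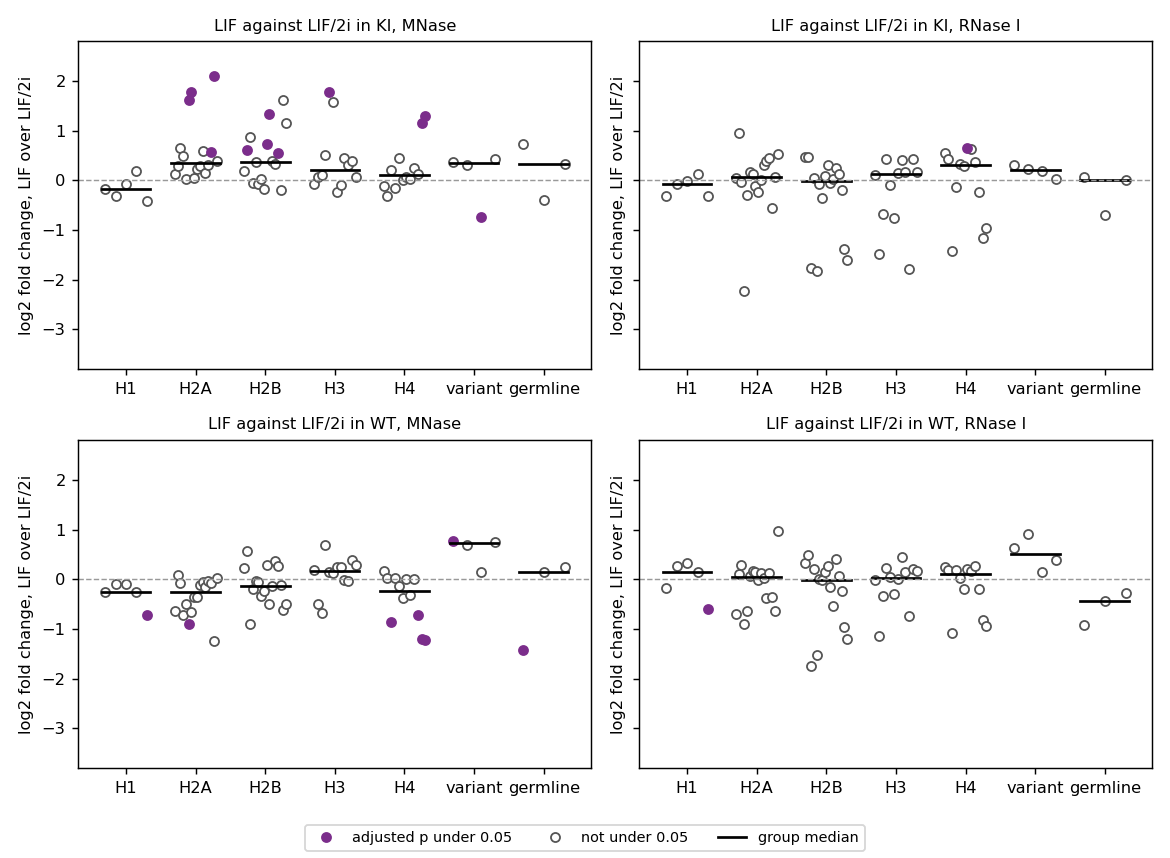
Log2 fold change of LIF over LIF/2i for each tested histone gene in KI and WT cells, by family and class, with both nucleases. Filled points pass the adjusted p threshold and lines are medians. With MNase in KI cells, 11 genes pass as higher and 1 as lower, 17.6% of those tested against 18.7% of all genes. The variant median in WT cells with MNase is 0.72.

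The medium effect differed between genotypes for 2 histone genes with MNase (edgeR interaction, adjusted p under 0.05), against 0.336% of all genes tested (0.102% positive, 0.234% negative). H2ac18 had an interaction of 2.52 on the log2 scale (SE 0.41, edgeR adjusted p = 0.0175), and Hist1h4m one of 2.35 (SE 0.42, edgeR adjusted p = 0.0289). Positive values mean a larger LIF over LIF/2i ratio in KI than in WT. All 16 H2A genes were positive, with a median of 0.62, and all 4 variant genes negative, with a median of −0.39. The count was 13 without KI replicate 1, against 3.45% of all genes. Leaving out KI LIF replicates 1, 2 or 3 gave 4, 0 or 1, KI LIF/2i replicates 1, 2 or 3 gave 7, 1 or 1, WT LIF replicates 1 or 2 gave 0 each, and WT LIF/2i replicates 1, 2 or 3 gave 0, 1 or 1. With RNase I 0 passed, as for all genes (0%), and 1 had an unadjusted p under 0.05, with 0 by DESeq2. The RNase I interaction was 0.10 (SE 0.81) for H2ac18 and −0.34 (SE 0.69) for Hist1h4m.

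With the replicate block, the medium effect in KI cells differed between nucleases for 6 histone genes, against 0.935% of all genes. It was larger with MNase for Hist1h4n (1.97), Hist1h4m (1.98), H2bc6 (1.35), Hist1h2bq (2.46) and H3c14 (1.40) and smaller for H3f3a (−0.88), all log2 differences. In WT cells 0 differed, against 0.0236% of all genes, and 1 had an unadjusted p under 0.05 without the block, with 0 by DESeq2.

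MNase cuts preferentially next to A and T and RNase I cuts with little base preference, so single histone genes can be recovered unequally. The part of base preference in the differences below was not tested. Of 68 histone genes 10 were higher and 19 lower with MNase than with RNase I over 16 libraries (edgeR, adjusted p under 0.05), against 15.3% higher, 14.9% lower and 30.1% in all of 12732 genes. H2B genes had 2 higher and 8 lower and a median of −0.52. H4 genes had 3 higher and 1 lower and a median of 0.21. None of the 4 variant genes passed. With the replicate block 48 histone genes passed, 21 higher and 27 lower, against 54.3% of all genes.

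H4c4 had the smallest p, with 352 to 636 CPM over the 12 MNase libraries and 202 to 364 CPM over the 8 RNase I libraries, a log2 change of 0.96 (SE 0.08, edgeR adjusted p = 4.67e-06). H4c2, a further H4 gene, was higher by 1.07 (SE 0.14, edgeR adjusted p = 0.000122), at 130 to 302 CPM with MNase and 75.3 to 132 CPM with RNase I. H2bc21, an H2B gene of chromosome 3, had 25.6 to 57.9 CPM with MNase and 76.8 to 113 CPM with RNase I, a change of −1.30 (SE 0.12, edgeR adjusted p = 9.44e-06). H2bc6 had 7.68 to 59.5 CPM with MNase and 53.4 to 75.4 CPM with RNase I, a change of −1.34 (SE 0.15, edgeR adjusted p = 4.3e-05). Ranges were apart for H2bc21 and overlapped for the others named here.

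The H2A gene Hist1h2ap was lower with MNase by −1.45 (SE 0.15, edgeR adjusted p = 2.48e-05) and the H2B gene H2bc12 by −1.05 (SE 0.13, edgeR adjusted p = 7.39e-05). The largest positive changes were those of H2ac13 (2.28), H2bc15 (1.91) and Hist1h2ao (1.49), all under 30 CPM. For comparison of genotypes, H2bc21 had log2 KI over WT changes of −0.04 with MNase and 0.10 with RNase I in LIF/2i.

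**Figure D5:**
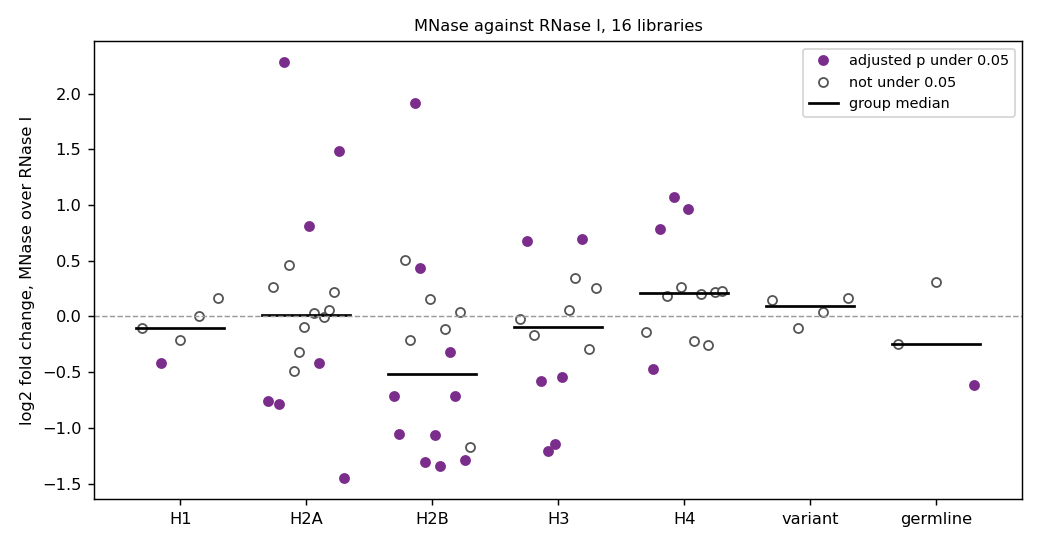
Log2 fold change of MNase over RNase I for each tested histone gene over 16 libraries, by family and class. Filled points pass the adjusted p threshold and lines are medians, which lie at −0.52 for H2B and 0.21 for H4.

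Genes that act on histone mRNA or protein were counted beside the histone genes. Of 29 tested genes for histone mRNA transcription and 3′ end processing, 8 were higher and 1 lower in KI than in WT in LIF/2i with MNase (edgeR, adjusted p under 0.05), against 13.8% higher and 11.5% lower of all genes, with a median log2 change of 0.25. Cpsf2, a subunit of the complex that cleaves histone pre-mRNA, averaged 206 ± 16.4 CPM in KI and 106 ± 4.36 CPM in WT (SD, n = 3 each), a log2 change of 0.96 (SE 0.12, edgeR adjusted p = 0.000522). Of the 29, 6 were higher and 0 lower in LIF, against 7.36% and 6.05% of all genes. Of 32 histone chaperones and deposition factors, 10 were higher and 4 lower in LIF/2i, against the same 13.8% and 11.5%, and 4 higher and 0 lower in LIF, against 7.36% and 6.05%. Both FACT subunits were higher in LIF/2i. Supt16 averaged 1147 ± 156 CPM in KI and 557 ± 48.7 CPM in WT, and Ssrp1 510 ± 20.2 CPM in KI and 259 ± 47.3 CPM in WT (SD, n = 3 each).

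Of 34 S phase genes, 11 were higher and 0 lower in KI in LIF/2i, against 13.8% and 11.5% of all genes, and 9 higher and 0 lower in LIF, against 7.36% and 6.05%. Mcm6, a replicative helicase subunit, averaged 918 ± 39.2 CPM in KI and 559 ± 65.4 CPM in WT in LIF/2i (SD, n = 3 each), a log2 change of 0.72 (SE 0.14, edgeR adjusted p = 0.00301). The summed S phase list had 11379 to 12426 CPM in KI and 8613 to 10198 CPM in WT, and 6 markers of G2 and M phase summed to 3064 to 3531 CPM in KI and 2001 to 2468 CPM in WT. These sums were higher in KI, while the replication-dependent histone sum was lower, and the part of cell cycle in the histone result was not tested. With RNase I none of these lists had a call for KI against WT in either medium (edgeR, adjusted p under 0.05), with medians of 0.07, 0.20 and 0.08 in LIF/2i for mRNA processing, chaperones and S phase.

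A list of histone variants outside the naming rule had 10 tested genes, among them the H2A variant H2aj and the centromeric H3 gene Cenpa. In LIF/2i with MNase 2 of the 10 were lower and 0 higher in KI, against 11.5% and 13.8% of all genes. H2aj averaged 119 ± 11.5 CPM in KI and 184 ± 8.82 CPM in WT (SD, n = 3 each), a log2 change of −0.63, and Cenpa 90.9 ± 6.64 CPM in KI and 123 ± 14.5 CPM in WT, a change of −0.44. In LIF 3 were lower, against 6.05% of all genes, with H2ax, whose product marks DNA breaks, as the third (−0.63). The list medians with MNase were −0.30 in LIF/2i and −0.41 in LIF. With RNase I they were 0.19 and −0.05, and 0 of the 10 passed in either medium, against 0.232% and 0.116% of all genes.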

How the data were processed

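The values are raw counts of ribosome footprints per gene that the authors deposited, with 20 libraries as columns. The tools named in the submitters' processing notes are UMI-tools 1.0.1, Bowtie 1.3.0 and cutadapt 3.4. Per the labels' protocols, linkers carried molecular identifiers. Not given in the sources used here are the reference build, the handling of reads that fit several genes and the use of strand.

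Counts were fitted for all genes with edgeR 4.0.16 (R 4.3.3, limma 3.58.1), using filterByExpr, TMM factors, the quasi-likelihood test on group means and Benjamini-Hochberg adjustment over all genes tested, with a threshold of 0.05, two-sided. MNase and RNase I were fitted apart, and replicates 1 and 2 together for nuclease contrasts. CPM use TMM-adjusted totals. The fits were tested on simulated data first.

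Values in each library are given for up to 6 genes with the smallest p among those called and for the most abundant gene of each family. Same-numbered libraries of a group deviated together across nucleases (r of 0.486 to 0.711). Between media in KI with MNase they did so too (0.315 to 0.563), but there replicates 2 and 3 also correlated with each other (0.367 and 0.404). Same-numbered libraries did not deviate together between genotypes (−0.0993 to 0.118) or between media in WT with MNase (0.0153 to 0.0778). Alternatives were DESeq2 1.42.0, other filters and scalings, thinned counts, a replicate block and left-out libraries. The histone genes and the other lists were chosen with earlier results of these data known. Intervals and limits from counts cover counting error only.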

Additional observations from a re-analysis of the deposited data

Results flagged for a closer look

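The medium effect differed between KI and WT cells with MNase for 2 histone genes by the test of the difference itself (edgeR interaction, adjusted p under 0.05). On the log2 scale the difference was 2.52 for H2ac18 (SE 0.41, edgeR adjusted p = 0.0175) and 2.35 for Hist1h4m (SE 0.42, edgeR adjusted p = 0.0289). With RNase I it was 0.10 (SE 0.81) for H2ac18 and −0.34 (SE 0.69) for Hist1h4m, neither past the threshold. Leaving out 1 MNase library at a time kept the call in 8 of 12 fits for H2ac18 and in 2 of 12 for Hist1h4m. H2ac18 averaged 13.5 ± 2.10 CPM in LIF and 4.43 ± 1.57 CPM in LIF/2i in KI cells, and 19.9 ± 6.65 CPM in LIF and 37.9 ± 6.24 CPM in LIF/2i in WT cells (SD, n = 3 each). Each gene shares a long upstream run with a second copy.

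Effects also differed between MNase and RNase I in the fit with the replicate block. The KI over WT ratio differed for 24 histone genes in LIF/2i and for 3 in LIF, and the LIF over LIF/2i ratio in KI cells for 6. Over all genes tested these differences reached 15.3%, 0.738% and 0.935%. The fit without the block called 0 in each case.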

How the results depend on the processing

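No called direction among the histone genes reversed in any setting run. For KI against WT with MNase, leaving out KI replicate 1 in both media gave 49 calls in LIF/2i and 28 in LIF, and replicates 1 and 2 alone gave 7 and 0. For LIF against LIF/2i the same settings gave 24 and 2 calls in KI cells and 18 and 0 in WT cells, and 13 and 0 for the interaction. Fits with replicates 1 and 2 alone, and the KI libraries alone with the replicate block (22 calls for the medium effect), were chosen after seeing the data. The MNase interaction had 8 calls with DESeq2, 5 with no filter and 5 with the replicate block. With RNase I, leaving out KI replicate 1 gave 8 calls for KI against WT in LIF/2i and 4 in LIF, and 0 in KI and 9 in WT cells for the medium. DESeq2 and no filter gave 1 call each for KI against WT in LIF, 3 and 4 for the medium in KI cells, and 3 and 6 in WT cells, and the replicate block gave 0 and 3. With the replicate block 48 genes differed between nucleases, and differences of effects had 24 calls for genotype in LIF/2i, 3 in LIF and 6 for medium in KI cells. Without KI replicate 1 the LIF/2i difference had 2, and DESeq2 gave 1 in LIF.

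Leaving out 1 library at a time gave 20 to 47 calls for KI against WT in LIF/2i with MNase, 2 to 18 in LIF, 4 to 23 for the medium in KI cells, 2 to 13 in WT cells and 0 to 7 for the interaction. With RNase I it gave 0 to 0 for KI against WT in both media and for the interaction, 0 to 3 for the medium in KI cells and 0 to 5 in WT cells. For MNase against RNase I it gave 23 to 30, and for the difference of the genotype effect in LIF/2i 0 to 1, the 1 without KI LIF/2i MNase replicate 1. The summed replication-dependent level of WT cells in LIF with MNase was 13592 CPM with raw library totals. Depth limits the genes under 30 CPM most. The counts in this section are given without the share of all genes called in the same fit, with which they may move.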
